A study of Mus musculus with 6 samples.

Results

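The genes described here encode the enzymes that carry pyruvate into the mitochondrial TCA cycle, turn the cycle, and connect it to malate, aspartate, alanine and glutamate. They were chosen by symbol, with no threshold on their values but with earlier results of these data known, as pyruvate dehydrogenase with its kinases and phosphatases, pyruvate carboxylase, the TCA cycle enzymes outside succinate dehydrogenase and the oxoglutarate dehydrogenase complex, and linked cytosolic and glutamate enzymes. All 32 symbols were found among the 22611 genes of the expression table. RNA had been sequenced from the duodenal epithelium, stripped from the underlying mesenchyme with EDTA, of 3 WT and 3 *Esrra*-/- mice. Each mouse gave 1 library. The *Esrra*-/- mice carried a germline null allele of *Esrra*, the gene of the nuclear receptor ESRRA (estrogen-related receptor α), so that every tissue lacked the receptor and not the intestine alone. The WT mice were littermates, and the mice of both genotypes had eaten a high-fat diet for some 8 weeks. The litters were bred with the intestinal *Villin-CreERT2* transgene, and whether the mice of the RNA-seq carried it, and their age, are not given in the sources used here.

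Pyruvate made by glycolysis enters the mitochondrion, where the pyruvate dehydrogenase complex turns it into acetyl-CoA or pyruvate carboxylase turns it into oxaloacetate. Pyruvate dehydrogenase is switched off by its kinases and on again by its phosphatases. Citrate synthase then joins acetyl-CoA to oxaloacetate, and the cycle returns to oxaloacetate through isocitrate, oxoglutarate, succinate, fumarate and malate while it hands electrons to the respiratory chain. Absorptive enterocytes also burn glutamine and glutamate from the diet, which reach the cycle through transaminases and glutamate dehydrogenase.

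Values are FPKM, which corrects fragments for transcript length and for library size, so that levels of different genes can be compared. Of the 32 genes, 29 had a mean FPKM above 1 over the 6 libraries and were tested together with the other genes above that level, 10596 in all, with limma on log2(FPKM + 0.1). The other 3, *Pdp1*, *Me3* and *Gpt2*, are given by their values only. Calls (lower or higher in *Esrra*-/-) required both a log2 fold change past 0.58 in size, *Esrra*-/- over WT, and an unadjusted p below 0.05. On the log2(FPKM + 0.1) scale the changes of low genes come out too small. *Esrra* itself was at 49.4, 73.5 and 104 FPKM in WT mice and at 10.4, 9.42 and 8.72 FPKM in *Esrra*-/- mice, so the labelled genotypes did not overlap (log2 fold change −2.92, SE 0.26, adjusted p = 0.0215 by limma).

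The tissue was checked against cell markers. The summed FPKM of 12 villus enterocyte markers ran from 41118 to 66418 in WT and from 50971 to 70526 in *Esrra*-/-, while 6 of 8 mesenchymal markers stayed below 1 FPKM in every library and 6 of 8 pancreatic acinar markers (*Cpa1*, *Cela2a*, *Cela3b*, *Prss2*, *Pnlip*, *Amy2a5*) were listed at 0 in all of them. Some markers moved with the genotype. The summed level of 6 Paneth cell markers was 9802 to 19874 FPKM in WT and 1917 to 8409 FPKM in *Esrra*-/-, and *Lyz1*, *Defa17*, *Defa24* and *Ang4* of the 6 were called lower. This count was 1 (*Defa17*) without WT replicate 1, WT replicate 2 or *Esrra*-/- replicate 3, and 3 to 6 without any other library. That of 10 crypt markers was 227 to 353 FPKM in WT and 116 to 268 FPKM in *Esrra*-/-, and *Smoc2* of these was called lower, with 5 called without *Esrra*-/- replicate 2 and 4 without WT replicate 3. None of the 7 goblet, 8 enteroendocrine, 3 tuft and 5 immune cell markers tested was called. The summed levels of all 7 goblet, 8 enteroendocrine, 5 tuft and 7 immune markers in the table, those below the filter included, were 6559 to 7962, 280 to 434, 6.70 to 10.7 and 14.7 to 28.7 FPKM over the 6 libraries. None of the 12 villus enterocyte markers was called, and 11 had a positive log2 fold change (median 0.27). The part of these shifts in the values below was not tested, and in bulk tissue fewer cells of a type and less RNA per cell cannot be told apart. WT replicate 3 and *Esrra*-/- replicate 3 were the libraries without transcripts of 4 Y-linked genes above a trace (0.0487 and 0.222 FPKM summed, against 27.3 to 46.7 FPKM in the other 4 libraries), so differences within each kind of library are given beside the pooled ones for the genes called lower and for some others.

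Of the 29 tested genes, 10 were called lower in *Esrra*-/- (34.5%) and 0 were called higher. Over all genes tested, 3.28% were called lower and 1.35% higher. The genes called lower were *Pdha1*, *Pdhb*, *Dlat*, *Pdhx*, *Idh3a*, *Idh3b*, *Fh1*, *Idh2*, *Got1* and *Got2*. By place in the pathway they comprise the 4 listed subunits of pyruvate dehydrogenase (*Dld* is outside the list) and 3 of 9 cycle enzymes of the matrix. The others are 1 of 6 NADP-linked and cytosolic enzymes (*Me2* counted with them), and 2 of 4 transaminases and glutamate dehydrogenase. No kinase, phosphatase or carboxylase of pyruvate was among them. The count was 5 without WT replicate 3, 6 without *Esrra*-/- replicate 1, 7 without *Esrra*-/- replicate 2 and 9 to 12 without any other library, and *Pdha1*, *Dlat*, *Idh3a* and *Fh1* were called in each of these 6 fits. For 12 of the 29 genes (41.4%) every *Esrra*-/- value lay below every WT value, against 9.14% of all genes tested, and for 0 did every value lie above, against 8.45% (17.6% of all genes in either direction). A negative log2 fold change was found for 21 of the 29 (72.4%), against 45.7% of all genes. The median log2 fold change was −0.22 over the 29 genes and 0.03 over all genes. None of the 29 had an adjusted p under 0.05 from limma (Benjamini-Hochberg, across the whole table), where 4 genes of the 10596 did (0.0378%), and 11 of the 29, all of them lower, had an unadjusted p under 0.05 (10.8% of all genes in either direction and 6.49% lower).

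**Figure D1:**
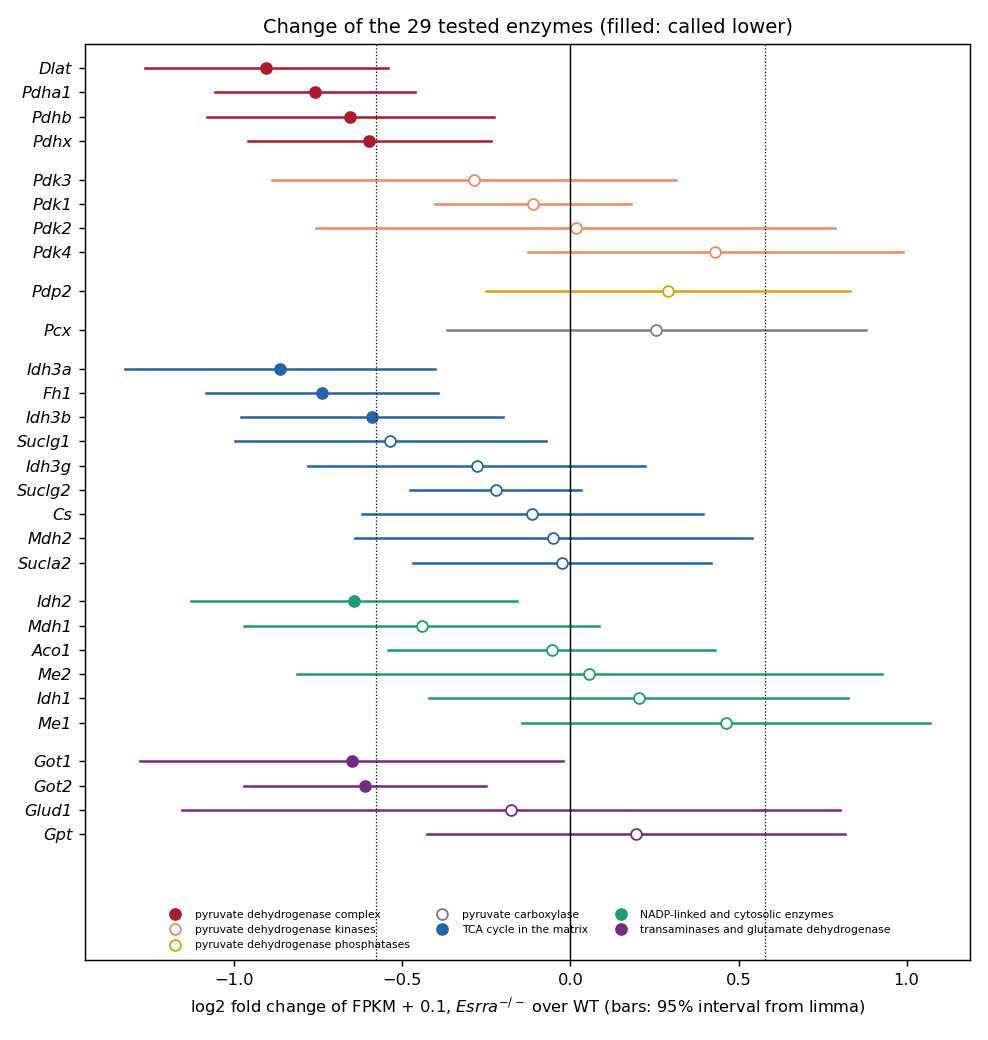
Log2 fold change of FPKM + 0.1 in *Esrra*-/- over WT (x axis) for the 29 tested enzymes (y axis, grouped and coloured by role), with 95% intervals from limma (3 mice per genotype). Filled circles are the 10 genes called lower, dotted lines mark ±0.58, and the 4 core subunits of pyruvate dehydrogenase all lie to the left of −0.58 while none of its 4 kinases does.

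All 4 core genes of the pyruvate dehydrogenase complex were called lower. They are the decarboxylase pair *Pdha1* and *Pdhb*, the acetyltransferase *Dlat* and *Pdhx*, the protein that anchors the shared dehydrogenase *Dld* to the core. *Dld* itself, a subunit of the complex outside the list, had a log2 fold change of −0.51 and was not called. *Pdha1* (chromosome X of mm9, 156560141 to 156576345, minus strand) had 63.8, 70.2 and 71.5 FPKM in WT and 38.5, 38.6 and 44.2 FPKM in *Esrra*-/-. The genotypes were far apart next to the spread within each. The *Esrra*-/- mean of 40.4 ± 3.22 FPKM was 59.0% of the WT mean of 68.5 ± 4.10 FPKM (SD, n = 3). The log2 fold change was −0.76 (SE, the standard error, 0.13, adjusted p = 0.151 by limma). *Dlat* (chromosome 9, 50442738 to 50467885, minus strand) showed the most negative log2 fold change of the 29 genes. It had 19.0, 16.8 and 21.9 FPKM in WT and 9.89, 9.02 and 11.8 FPKM in *Esrra*-/-, and its means were 19.3 ± 2.57 and 10.2 ± 1.41 FPKM, a log2 fold change of −0.91 (SE 0.15, adjusted p = 0.158 by limma).

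*Pdhb* (chromosome 14, 8998505 to 9005506, minus strand) had 59.3, 45.3 and 66.2 FPKM in WT and 34.1, 32.2 and 41.3 FPKM in *Esrra*-/-. The genotypes did not overlap, although WT replicate 2 and *Esrra*-/- replicate 3 came close. Its log2 fold change was −0.65 (SE 0.18, adjusted p = 0.326 by limma), and −0.54 without WT replicate 3, short of a call. *Pdhx* (chromosome 2, 102861232 to 102913670, minus strand) had 18.3, 15.7 and 14.2 FPKM in WT and 9.63, 9.81 and 12.4 FPKM in *Esrra*-/-. Here WT replicate 3 was the lowest of its group, unlike in *Pdha1*, *Pdhb* and *Dlat*, where it was the highest. The log2 fold change of *Pdhx* was −0.60 (SE 0.15, adjusted p = 0.295 by limma), close to the threshold, and it was −0.50 without WT replicate 1, −0.53 without *Esrra*-/- replicate 1 and −0.55 without *Esrra*-/- replicate 2, no longer a call in any of these, nor at −0.56 with a pseudocount of 1. *Pdha1* and *Dlat* were called lower with every library left out in turn, at −0.83 to −0.73 and −1.01 to −0.81.

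**Figure D2:**
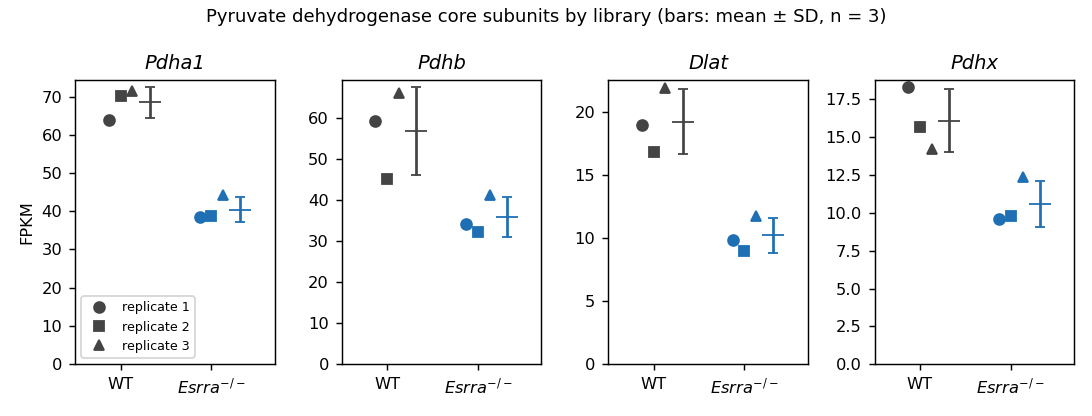
FPKM (y axis, from 0) of *Pdha1*, *Pdhb*, *Dlat* and *Pdhx* in each WT (grey) and *Esrra*-/- (blue) library, with marker shapes for replicates 1 to 3 and bars for the mean ± SD of 3 mice. In each of the 4 panels all *Esrra*-/- libraries lie below all WT libraries, with means at 59.0%, 63.0%, 53.1% and 65.9% of WT.

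The 4 subunits were lower in *Esrra*-/- among libraries with and without Y-linked transcripts. Between the 2 WT and 2 *Esrra*-/- libraries with these transcripts the log2 difference was −0.79 for *Pdha1*, −0.64 for *Pdhb*, −0.91 for *Dlat* and −0.80 for *Pdhx*. Between the single libraries without them it was −0.69, −0.68 and −0.89 for the first 3 of these genes and −0.20 for *Pdhx*. Proportions between subunits overlapped between the genotypes. The log2 ratio of *Pdha1* over *Pdhb* was 0.28 ± 0.30 in WT and 0.18 ± 0.08 in *Esrra*-/- (SD, n = 3, two-sided exact permutation, p = 0.8), and that of *Dlat* over *Pdha1* was −1.83 ± 0.19 and −1.98 ± 0.10 (exact permutation test, p = 0.3). *Pdha1* and *Map3k15* share 18.4% of the 31-base stretches of the longest *Pdha1* transcript in the annotation, so fragments there could be split between the genes, but *Map3k15* had 0.119 to 0.518 FPKM.

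The promoters of the 4 subunits are shown because these genes were all called lower, and that of *Got1* because it is the only promoter of these enzymes with the core letters of the ESRR binding motif. Sequences are from RefSeq (GRCm38.p6) and run 5′ to 3′ on the strand of the gene, from 250 bases before to 50 bases after its start. A promoter was found for 28 of the 32 genes, all but *Pdp1*, *Idh3a*, *Me2* and *Gpt*. Capitals mark matches on either strand to TCAAGGTCA (the full ESRR motif), its core AAGGTCA, the palindromic NRF1 motif, named only, CCGGAAG (ETS factors), CCAAT (the CCAAT box, also read as ATTGG) and GGGCGG (the GC box).
*Pdha1*, chrX:160138381-160138680, minus strand: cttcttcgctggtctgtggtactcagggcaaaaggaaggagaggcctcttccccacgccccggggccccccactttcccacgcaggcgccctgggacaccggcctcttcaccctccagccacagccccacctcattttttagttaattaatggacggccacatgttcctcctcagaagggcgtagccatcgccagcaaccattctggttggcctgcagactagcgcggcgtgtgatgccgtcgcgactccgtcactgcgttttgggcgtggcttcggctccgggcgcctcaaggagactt
*Pdhb*, chr14:8172943-8173242, minus strand: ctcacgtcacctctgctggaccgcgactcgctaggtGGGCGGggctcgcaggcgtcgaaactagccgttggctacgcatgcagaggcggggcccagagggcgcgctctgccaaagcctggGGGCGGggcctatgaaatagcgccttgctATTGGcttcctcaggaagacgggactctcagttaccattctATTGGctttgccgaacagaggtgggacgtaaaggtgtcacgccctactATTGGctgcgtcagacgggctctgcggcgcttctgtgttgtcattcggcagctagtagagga
*Dlat*, chr9:50659731-50660030, minus strand: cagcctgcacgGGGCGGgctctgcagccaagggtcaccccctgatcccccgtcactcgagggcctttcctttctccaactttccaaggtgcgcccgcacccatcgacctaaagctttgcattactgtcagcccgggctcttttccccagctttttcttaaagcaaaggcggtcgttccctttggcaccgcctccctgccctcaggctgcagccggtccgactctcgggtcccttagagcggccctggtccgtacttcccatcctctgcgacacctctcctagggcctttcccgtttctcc
*Pdhx*, chr2:103073464-103073763, minus strand: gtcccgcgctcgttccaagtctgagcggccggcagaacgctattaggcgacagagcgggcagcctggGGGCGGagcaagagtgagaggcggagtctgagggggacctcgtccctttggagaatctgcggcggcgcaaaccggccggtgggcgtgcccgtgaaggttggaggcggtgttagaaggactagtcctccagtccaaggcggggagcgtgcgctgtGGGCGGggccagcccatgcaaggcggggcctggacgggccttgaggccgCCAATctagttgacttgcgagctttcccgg
*Got1*, chr19:43524556-43524855, minus strand: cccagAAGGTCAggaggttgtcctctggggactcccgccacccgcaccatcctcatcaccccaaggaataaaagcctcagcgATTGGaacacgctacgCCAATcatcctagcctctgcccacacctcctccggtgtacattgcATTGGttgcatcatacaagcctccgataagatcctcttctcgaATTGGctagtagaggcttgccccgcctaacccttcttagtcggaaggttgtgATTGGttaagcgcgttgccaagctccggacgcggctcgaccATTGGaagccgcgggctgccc

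TCAAGGTCA was in none of the 28 genes' promoters and in 0.423% of all 32851 promoters. AAGGTCA, which lies within it, was in 1 (*Got1*, starting 245 bases before the start site) and in 4.72% of all. The NRF1 motif was in none, against 0.971% of all, and CCGGAAG was in those of *Glud1*, *Idh3b* and *Idh3g*, against 8.86%. CCAAT was in a promoter of 16 of the 28 genes and GGGCGG in one of 19. Some genes have more than one listed promoter, and of their 33 promoters 51.5% held CCAAT, against 37.4% of all promoters, and 60.6% held GGGCGG, against 35.7%. In the sequences above, *Pdhb* has 3 CCAAT and 2 GGGCGG matches, *Pdhx* 1 and 2, *Dlat* a single GGGCGG, *Got1* 6 CCAAT matches, and *Pdha1* none of the 6 motifs. The GC content of these 5 windows is 57.3% to 67.3%. Its median is 61.7% over the 33 promoters and 52.7% over all promoters, and its part in the share with GGGCGG was not tested. A match is a match of letters only, and a missing one says nothing of sites outside the window.

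None of the 4 kinases that inactivate pyruvate dehydrogenase was called. *Pdk2*, the most abundant of the 4, had 43.6, 44.4 and 75.5 FPKM in WT and 47.0, 38.7 and 82.9 FPKM in *Esrra*-/-. It was high in both libraries without Y-linked transcripts and similar in the others, with a log2 fold change of 0.02 and a wide interval (95% interval −0.76 to 0.79), and its direction turned under quantile normalization. *Pdk4*, the isoform induced by fasting and fat, had 9.97, 17.2 and 15.7 FPKM in WT and 23.1, 18.2 and 15.7 FPKM in *Esrra*-/-. The genotypes overlapped, and the log2 fold change of 0.43 did not pass the test (95% interval −0.13 to 0.99, adjusted p = 0.556 by limma). It was 0.64 between libraries with Y-linked transcripts and 0.0027 between those without.

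*Pdk3* had a log2 fold change of −0.29 (95% interval −0.89 to 0.31). *Pdk1*, the isoform induced by hypoxia, was the steadiest, with 4.799 to 5.49 FPKM in WT and 4.49 to 4.74 FPKM in *Esrra*-/-. Its groups did not overlap, by a small margin, and its log2 fold change was −0.11 (95% interval −0.40 to 0.18). Of the summed FPKM of the 4 kinases, *Pdk2* made up 57.7% ± 4.09 in WT and 57.2% ± 8.30 in *Esrra*-/- (SD, n = 3), *Pdk3* 21.0% ± 0.910 and 16.7% ± 0.397, *Pdk4* 15.6% ± 4.46 and 21.0% ± 7.31, and *Pdk1* 5.69% ± 1.71 and 5.07% ± 1.29. The ratio of the summed kinases to the summed 4 core subunits, computed after the values had been seen, was 0.468, 0.561 and 0.705 in WT and 0.967, 0.830 and 1.13 in *Esrra*-/-, 1.69-fold higher in the mean. It is given as a description, with no test, since the lower values of its denominator prompted it.

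The phosphatases that reactivate the complex were low. *Pdp2* had 4.75, 4.49 and 2.71 FPKM in WT and 4.40, 4.47 and 5.46 FPKM in *Esrra*-/-, with WT replicate 3 below the other 5 libraries and a log2 fold change of 0.29 (95% interval −0.25 to 0.83). *Pdp1* had 0.579 to 1.11 FPKM in WT and 0.643 to 1.48 FPKM in *Esrra*-/-. *Pcx*, pyruvate carboxylase, which feeds pyruvate to the cycle as oxaloacetate, had 12.2, 10.01 and 12.2 FPKM in WT and 12.1, 10.03 and 21.03 FPKM in *Esrra*-/-. Replicate 3 alone stood above the others in *Esrra*-/-, and the log2 fold change of 0.26 (95% interval −0.37 to 0.88) became −0.05 without it.

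All 9 matrix enzymes had a negative log2 fold change (median −0.28), of which *Idh3a*, *Idh3b* and *Fh1* were called lower, while citrate synthase and malate dehydrogenase, the enzymes on both sides of oxaloacetate, had means at 93.7% and 96.1% of WT. *Cs* (chromosome 10, 127774888 to 127799535, plus strand) had 406, 393 and 488 FPKM in WT and 386, 318 and 502 FPKM in *Esrra*-/-. Both replicates 3 were the highest of their groups, and the log2 fold change was −0.11 (95% interval −0.62 to 0.40, adjusted p = 0.876 by limma). *Mdh2* (chromosome 5, 136254350 to 136266268, plus strand), the most abundant of the 32 genes, had 1163, 1043 and 1585 FPKM in WT and 1084, 1075 and 1484 FPKM in *Esrra*-/-. Its log2 fold change was −0.05 (95% interval −0.64 to 0.54) and turned positive under quantile normalization, so a change within these bounds was not detectable. *Cs* shares 8.90% of its 31-base stretches with *Csl*, which had at most 0.0349 FPKM.

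Isocitrate dehydrogenase of the cycle, which uses NAD, is built from a catalytic subunit (*Idh3a*) with *Idh3b* and *Idh3g*. *Idh3a* (chromosome 9, 54434288 to 54452468, plus strand) had 104, 83.5 and 129 FPKM in WT and 61.7, 48.4 and 61.6 FPKM in *Esrra*-/-. All *Esrra*-/- libraries lay below all WT libraries, the mean was 54.4% of WT, and the log2 fold change was −0.86 (SE 0.20, adjusted p = 0.268 by limma), from −1.02 to −0.71 with each library left out. It was −0.77 between libraries with Y-linked transcripts and −1.06 between those without. *Idh3b* had 113, 116 and 142 FPKM in WT and 72.6, 78.7 and 95.3 FPKM in *Esrra*-/-. It did not overlap either, but its log2 fold change of −0.59 (SE 0.17) was at the threshold and fell short without WT replicate 3 (−0.49), *Esrra*-/- replicate 1 (−0.51) or *Esrra*-/- replicate 2 (−0.56). Among libraries with and without Y-linked transcripts it was −0.60 and −0.57. *Idh3g* had 129, 131 and 180 FPKM in WT and 106, 105 and 152 FPKM in *Esrra*-/-, so that *Esrra*-/- replicate 3 lay within the WT range. Its log2 fold change was −0.28 (95% interval −0.78 to 0.22).

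The log2 ratio of *Idh3a* over *Idh3g* was −0.32, −0.65 and −0.49 in WT and −0.78, −1.12 and −1.30 in *Esrra*-/-. It was lower in every *Esrra*-/- library, by 0.59 in the mean (two-sided exact permutation, p = 0.1, the minimum for 3 against 3, and 0.467 adjusted over the 14 pairs of enzymes compared in this way). The ratio of *Idh3a* over *Idh3b* overlapped between the genotypes (difference −0.27, exact permutation test, p = 0.2).

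*Fh1*, fumarate hydratase (chromosome 1, 177530505 to 177555766, minus strand), had 35.4, 35.7 and 42.6 FPKM in WT and 20.8, 21.1 and 26.15 FPKM in *Esrra*-/-. The genotypes were well apart, with a mean at 59.9% of WT and a log2 fold change of −0.74 (SE 0.15, adjusted p = 0.207 by limma) that stayed called with every library left out (−0.85 to −0.65), and that was −0.76 among libraries with Y-linked transcripts and −0.70 among those without. Succinyl-CoA ligase joins the α subunit *Suclg1* with either of the β subunits *Sucla2* (ATP-forming) and *Suclg2* (GTP-forming). *Suclg1* had 123, 126 and 171 FPKM in WT and 93.4, 81.3 and 115 FPKM in *Esrra*-/-, which did not overlap. Its log2 fold change of −0.54 passed on p but not on size, and it was called lower without WT replicate 1 (−0.62), WT replicate 2 (−0.60) or *Esrra*-/- replicate 3 (−0.67). *Suclg2* had 25.6 to 26.5 FPKM in WT and 21.5 to 23.4 FPKM in *Esrra*-/-, a narrow spread with a log2 fold change of −0.22 (95% interval −0.48 to 0.03). *Sucla2* had 118, 107 and 149 FPKM in WT and 125, 103 and 140 FPKM in *Esrra*-/-, with a log2 fold change of −0.03 (95% interval −0.47 to 0.42). *Sucla2* made up 82.5% ± 2.28 of the β subunit FPKM in WT and 84.4% ± 1.85 in *Esrra*-/-.

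**Figure D3:**
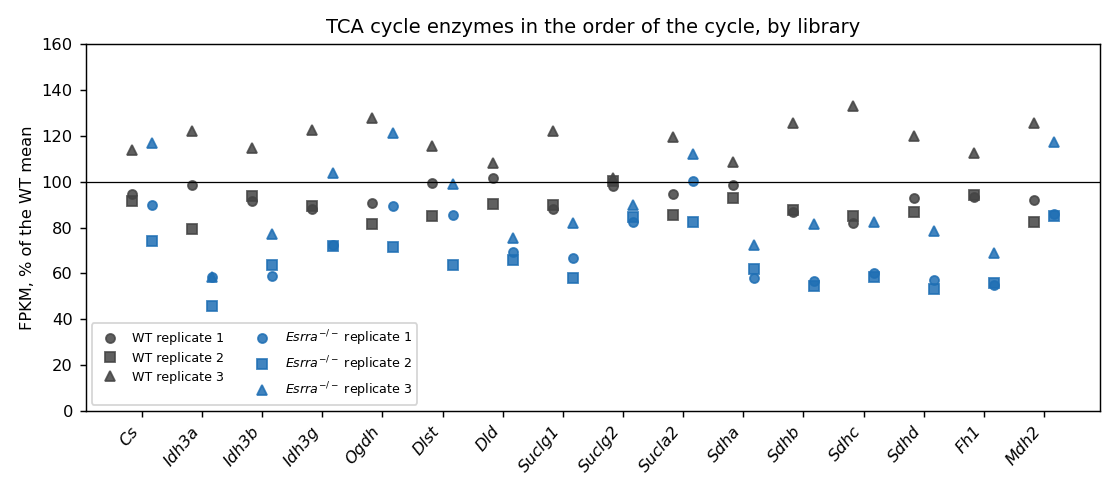
FPKM as a percentage of the WT mean of each gene (y axis, from 0) for 16 TCA cycle genes in the order of the cycle, in each WT (grey) and *Esrra*-/- (blue) library. *Idh3a* and *Fh1* in *Esrra*-/- stay below every WT library, while *Cs*, *Sucla2* and *Mdh2* overlap, and replicate 3 of each genotype (triangles) is high for most genes.

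Other cycle enzymes, outside the 32 genes, were listed for comparison. Of 7 tested, *Sdha*, *Sdhb* and *Sdhd* of succinate dehydrogenase were called lower, with log2 fold changes of −0.65, −0.64 and −0.68, 0 were called higher, all 7 were negative, and the median was −0.56. The call of *Sdha* was lost without *Esrra*-/- replicate 1 (−0.58), and those of *Sdhb* and *Sdhd* without WT replicate 3, *Esrra*-/- replicate 1 or *Esrra*-/- replicate 2, with values up to −0.47 and −0.54. *Sdhc* had −0.56 and *Dld* −0.51. *Ogdh*, the oxoglutarate decarboxylase, had −0.10 and its partner *Dlst* −0.29, neither called. In the wider oxidative phosphorylation list, 48 of 76 genes were called lower (63.2%), all 76 were negative, and the median was −0.61, with *Ndufa5* (−1.23), *Cycs* (−1.04) and *Ndufc1* (−1.04) at the smallest p. The 48 calls became 19 without WT replicate 3, 22 without *Esrra*-/- replicate 1, 28 without *Esrra*-/- replicate 2 and 47 to 64 without any other library. Of 13 glycolysis genes, *Pgam1* was called lower (−0.59), 0 were called higher, and the median was −0.05, with *Eno1* at −0.57 and *Tpi1* at −0.51. *Pgam1* was not called without WT replicate 3 or *Esrra*-/- replicate 2, with values up to −0.43, and 3 glycolysis genes were called lower without WT replicate 2 or *Esrra*-/- replicate 3.

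Of the NADP-linked and cytosolic enzymes, a group that also holds the mitochondrial NAD enzyme *Me2*, 1 was called. *Idh2*, the mitochondrial NADP isocitrate dehydrogenase (chromosome 7, 87239732 to 87260278, minus strand), had 23.6, 25.1 and 39.6 FPKM in WT and 18.1, 17.1 and 19.8 FPKM in *Esrra*-/-. All *Esrra*-/- libraries were below all WT libraries, and WT replicate 3 was the highest by far. The log2 fold change of −0.64 (SE 0.21, adjusted p = 0.373 by limma) was −0.41 without WT replicate 3, no longer a call, −0.47 between libraries with Y-linked transcripts and −0.9973 between those without. *Idh1*, its cytosolic counterpart, had 134, 157 and 247 FPKM in WT and 186, 169 and 252 FPKM in *Esrra*-/-, with a log2 fold change of 0.20 (95% interval −0.42 to 0.83). *Idh2* made up 14.9%, 13.8% and 13.8% of the summed FPKM of the pair in WT and 8.84%, 9.18% and 7.29% in *Esrra*-/-. The log2 ratio of *Idh2* over *Idh1* was lower by 0.85 in *Esrra*-/-, from −2.59 ± 0.08 to −3.44 ± 0.20 (SD, n = 3), without overlap (two-sided exact permutation, p = 0.1, the minimum for 3 against 3, 0.467 adjusted over the 14 pairs).

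Malate dehydrogenase was compared in the same way. *Mdh1*, the cytosolic enzyme, had 535, 550 and 716 FPKM in WT and 392, 383 and 560 FPKM in *Esrra*-/-. *Esrra*-/- replicate 3 lay above 2 WT libraries, and the log2 fold change of −0.44 was not called (95% interval −0.97 to 0.09), though it was −0.62 and called without that library. The log2 ratio of *Mdh2* over *Mdh1* was 1.12, 0.92 and 1.15 in WT and 1.47, 1.49 and 1.41 in *Esrra*-/-, a difference of 0.39 (two-sided exact permutation, p = 0.1, the minimum for 3 against 3, 0.467 adjusted over the pairs). Of the 14 pairs, these 2 and *Idh3a* over *Idh3g* were the ones without overlap between genotypes, 3 of 14, while 17.6% of all single genes tested did not overlap.

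The malic enzymes return malate to pyruvate. *Me1*, the cytosolic NADP form, had 29.5, 38.2 and 50.2 FPKM in WT and 52.8, 69.8 and 40.3 FPKM in *Esrra*-/-. Its direction depended on the kind of library, with a log2 difference of 0.85 between those with Y-linked transcripts and −0.32 between those without. Pooled, it was 0.46 (95% interval −0.15 to 1.07, adjusted p = 0.561 by limma), and *Me1* was called higher without WT replicate 3 (0.66) or without *Esrra*-/- replicate 3 (0.66). *Me2*, the mitochondrial NAD form and the most abundant of the 3, had 134, 126 and 205 FPKM in WT and 130, 107 and 278 FPKM in *Esrra*-/-. The pooled log2 fold change of 0.06 had a 95% interval from −0.81 to 0.93, and was −0.35 without *Esrra*-/- replicate 3. *Me3* had 0.242 to 0.584 FPKM in WT and 0.202 to 0.390 FPKM in *Esrra*-/-. *Aco1*, the cytosolic aconitase that also acts as an iron-sensing RNA-binding protein, had 68.7 to 103 FPKM in WT and 64.2 to 89.6 FPKM in *Esrra*-/-, with a log2 fold change of −0.06 (95% interval −0.54 to 0.43).

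**Figure D4:**
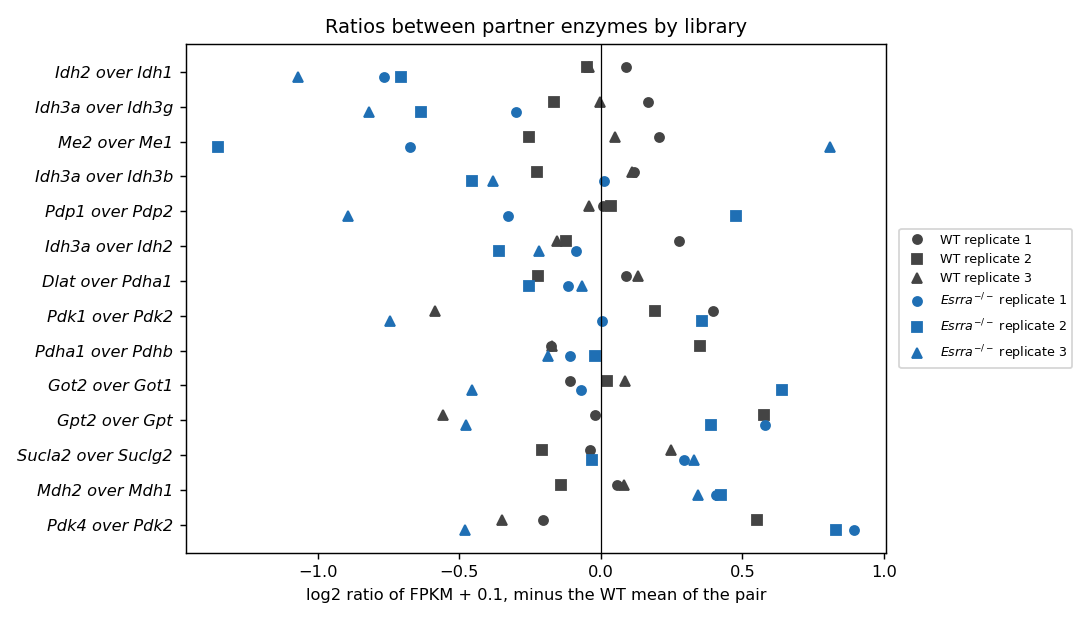
Log2 ratio of FPKM + 0.1 between partner enzymes, minus the WT mean of the pair (x axis), for 14 pairs (y axis) in each WT (grey) and *Esrra*-/- (blue) library. The genotypes do not overlap for *Idh2* over *Idh1*, *Idh3a* over *Idh3g* and *Mdh2* over *Mdh1*.

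Of the enzymes that exchange amino groups between glutamate and oxoacids, both aspartate aminotransferases were called lower. *Got2*, the mitochondrial form (chromosome 8, 98388034 to 98412447, minus strand), had 54.7, 45.4 and 61.4 FPKM in WT and 31.7, 37.2 and 36.1 FPKM in *Esrra*-/-. The genotypes did not overlap, and the log2 fold change was −0.61 (SE 0.15, adjusted p = 0.290 by limma), with the call lost without WT replicate 3 (−0.51) or *Esrra*-/- replicate 1 (−0.54) and among libraries with Y-linked transcripts (−0.54, against −0.77 between those without). *Got2* shares 45.6% of its 31-base stretches with *Gm10874*, a gene with at most 0.0481 FPKM, so its value is uncertain to the extent that fragments were divided between them. *Got1*, the cytosolic form (chromosome 19, 43574242 to 43599095, minus strand), had 79.5, 60.2 and 77.8 FPKM in WT and 44.8, 32.1 and 66.6 FPKM in *Esrra*-/-. *Esrra*-/- replicate 3 lay above WT replicate 2, so the groups overlapped.

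The log2 fold change of *Got1* was −0.65 with a wide error (SE 0.27, unadjusted p = 0.0443 and adjusted p = 0.445 from limma), and the call was lost without WT replicate 1 (−0.58), WT replicate 3 (−0.59), *Esrra*-/- replicate 1 (−0.64) or *Esrra*-/- replicate 2 (−0.40), and in limma without a trend. It was −0.86 between libraries with Y-linked transcripts and −0.22 between those without. The ratio of *Got2* over *Got1* differed by 0.04 between the genotypes, less than its spread (exact permutation test, p = 0.9).

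*Gpt*, the alanine aminotransferase, had 189, 173 and 266 FPKM in WT and 258, 169 and 298 FPKM in *Esrra*-/-, with a log2 fold change of 0.19 (95% interval −0.43 to 0.82). *Gpt2*, its mitochondrial counterpart, had 0.661 to 0.985 FPKM in WT and 0.801 to 1.52 FPKM in *Esrra*-/-, so *Gpt* made up 99.6% of the FPKM of the pair in both genotypes. *Glud1*, glutamate dehydrogenase, varied more among mice than between genotypes, with 73.2, 99.9 and 160 FPKM in WT and 82.9, 59.5 and 164 FPKM in *Esrra*-/-. Its log2 fold change was −0.18 (95% interval −1.15 to 0.80).

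Carriers and side enzymes next to these reactions were listed for comparison. Of 9 tested genes for lactate dehydrogenases and metabolite carriers, *Slc25a12*, the aspartate-glutamate carrier aralar, was called lower and 0 were called higher, with a median log2 fold change of 0.12 and with *Slc25a22* at 0.34 and *Slc16a1* at −0.24. *Slc25a12* averaged 2.27 ± 0.175 FPKM (SD, n = 3) in WT against 0.976 ± 0.0254 FPKM, a log2 fold change of −1.14 (SE 0.21, adjusted p = 0.178 by limma). Its paralogue *Slc25a13*, with the same transport, had 9.80 ± 1.11 and 10.2 ± 0.144 FPKM and a log2 fold change of 0.06. *Got1*, *Got2*, *Mdh1*, *Mdh2*, *Slc25a11*, *Slc25a12* and *Slc25a13* form the malate-aspartate shuttle, which brings reducing equivalents into the mitochondrion, and *Slc25a11* had a log2 fold change of 0.22. The shuttle was grouped after the values had been seen, so its calls are not counted. Of 12 side enzymes of citrate, acetate, propionate and glutamine, *Gls2* (−1.02, at 1.58 ± 0.187 FPKM in WT) and *Mcee* (−0.63) were called lower and *Acss1*, the mitochondrial acetyl-CoA synthetase, was called higher, from 7.89 ± 0.483 to 12.98 ± 0.227 FPKM (log2 fold change 0.71, SE 0.11, adjusted p = 0.111 by limma). *Slc25a12* and *Gls2* averaged below 1 FPKM in *Esrra*-/- and passed the filter on the mean only through their WT values, so their place among the tested genes depended on the group where they were high, and nothing is read from the share of these lists that was called. The call of *Mcee* was lost without WT replicate 3 (−0.52), and that of *Gls2* without WT replicate 2, WT replicate 3, *Esrra*-/- replicate 1 or *Esrra*-/- replicate 3 (values up to −0.81). The cytosolic *Acss2* had −0.37. *Pck1* had 0.72 with a standard error of 0.78, and it was called higher at 1.52 without *Esrra*-/- replicate 2 but had 0.0789 without *Esrra*-/- replicate 3.

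Taken library by library, the log2 values of the 29 genes deviated from the means of the genes by a median of 0.04, 0.02 and 0.44 in WT (replicates in order) and of −0.25, −0.38 and 0.03 in *Esrra*-/-. *Esrra*-/- replicate 3 lay just above WT replicate 2, so the set as a whole overlapped. The 4 core subunits of pyruvate dehydrogenase had 0.42, 0.27 and 0.50 in WT and −0.44, −0.46 and −0.18 in *Esrra*-/-, which did not overlap, and the 9 matrix enzymes of the cycle had 0.09, 0.11 and 0.45 against −0.30, −0.35 and −0.00. The oxidative phosphorylation genes had 0.12, 0.18 and 0.66 against −0.42, −0.47 and −0.06. Replicate 3 was the highest of its genotype in each of these 4 sets. The villus markers were at −0.17, −0.37 and 0.15 in WT and 0.18, −0.18 and 0.37 in *Esrra*-/-, where replicate 3 was again the highest of each genotype and the genotypes overlapped.

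**Figure D5:**
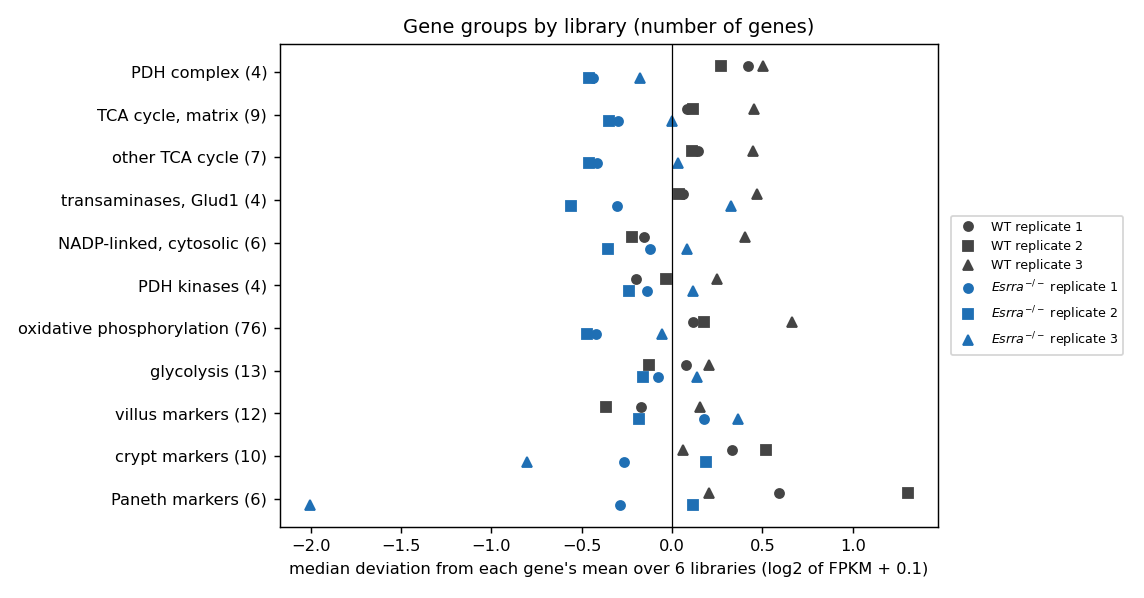
Median over each gene group (y axis, number of tested genes in parentheses) of the log2 deviation of FPKM + 0.1 from each gene's mean over the 6 libraries (x axis), in each WT (grey) and *Esrra*-/- (blue) library. The pyruvate dehydrogenase complex, the matrix TCA cycle and oxidative phosphorylation separate the genotypes, the kinases and villus markers overlap, and Paneth markers reach −2.01 in *Esrra*-/- replicate 3.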

How the data were processed

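RNA-seq reads of 3 WT and 3 *Esrra*-/- duodenal epithelia were processed by the authors, per the submitters' processing notes, with FastQC 0.11.3, Kallisto (version given as 2.1.0) against mm9 and DESeq2 (version given as 2.2.1), and the table deposited by the authors holds FPKM values per library. The annotation used is not given in the sources used here. A second deposited table holds only the authors' comparison of the genotypes (mean counts, fold changes, p-values) and was not used. FPKM values give no depth per library, so no counting error or count model was available and p-values measure the spread between these mice. The total FPKM per library was 707094 to 999902.

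Genes with a mean FPKM above 1 (10596) were put on the scale log2(FPKM + 0.1) and fitted with limma 3.58.1 in R 4.3.3 (lmFit, eBayes with a trend, no covariate, Benjamini-Hochberg adjustment over all genes), a procedure tested on simulated data. Ratios of 14 fixed pairs were tested with two-sided exact permutation tests in Python 3.11.15, adjusted over the pairs. The genes and lists were chosen with earlier results of these data known. All 32 genes are named. From the other lists the text names the genes called and the 3 with the smallest p (of oxidative phosphorylation and of cell markers, fewer), and some chosen after their values were seen (*Slc25a11*, *Slc25a13*, *Pck1*, *Ogdh*, *Dlst*, *Sdhc*). *Mpc1*, *Mpc2*, *Pkm* and *Adgre1* of the lists are not analysed here, and some other genes are not reported here. Gene coordinates are from GENCODE M1 (NCBIM37, the mm9 assembly). Shared 31-base stretches were counted against its protein-coding transcripts only. Same-numbered libraries were not paired by the labels. The alternatives were a pseudocount of 1, other filters and scalings, no trend, a replicate block, a covariate for Y-linked transcripts, other thresholds and each library left out. A fit on only the libraries with Y-linked transcripts was added after seeing the data.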

Additional observations from a re-analysis of the deposited data

How the results depend on the processing

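The count of enzymes called lower was 10, and 9 to 10 with a pseudocount of 1, quantile normalization, median-ratio scaling, no filter, a filter of 1 FPKM in each of the 6 libraries, no trend, or the Y-linked covariate, and 8 with libraries with Y-linked transcripts only. It was 0 at an adjusted p under 0.05, where 2 genes of all tested were lower and 2 higher. With each library left out it ran from 5 (without WT replicate 3) to 12 (without *Esrra*-/- replicate 3), with 6 without *Esrra*-/- replicate 1, and it was 11 with any log2 fold change. The count called higher was 0, or 0 to 1 with each library left out, and 1 (*Me1*) with libraries with Y-linked transcripts only. The median log2 fold change ran from −0.45 to −0.12 with each library left out, the extremes being without *Esrra*-/- replicate 3 and without WT replicate 3. Over all genes 348 were lower and 143 higher, 528 and 277 with no filter, 688 and 456 with any log2 fold change, and 252 to 537 lower and 146 to 214 higher with each library left out. Adjusted p fell under 0.05 for *Pdha1* and *Fh1* under quantile normalization (32 of all genes, against 4 in the fit reported) and for *Pdha1*, *Dlat* and *Fh1* with the Y-linked covariate (52 of all genes). Over all alternatives limma's adjusted p ran from 0.0405 to 0.587 for *Pdha1*, 0.0450 to 0.587 for *Dlat* and 0.0402 to 0.715 for *Fh1*. The causes were not tested.

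With the replicate number as a block, 10 enzymes were called lower and the median stayed at −0.22 (441 lower and 192 higher over all genes). The deviations of same-numbered libraries correlated at 0.01, 0.26 and 0.38, and those of differently numbered ones at −0.37 to 0.18. Deviations from the mean of a genotype depend on each other, so these values cannot tell whether the numbers pair the mice.

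Directions turned in genes that were not called. Under quantile normalization *Pdk2* had −0.0374 and *Mdh2* 0.12. With libraries with Y-linked transcripts only, *Pdk2* had −0.0439, *Pdp2* −0.0571, *Pcx* −0.0063, *Sucla2* 0.0106, *Aco1* 0.0949 and *Me2* −0.14. With each library left out, the log2 fold change ran from −0.30 to 0.28 for *Pdk2*, −0.0535 to 0.48 for *Pcx*, −0.29 to 0.0428 for *Cs*, −0.13 to 0.11 for *Sucla2*, −0.20 to 0.12 for *Mdh2*, −0.17 to 0.12 for *Aco1*, −0.35 to 0.33 for *Me2* and −0.58 to 0.15 for *Glud1*, and the difference in log2 ratio from −0.26 to 0.29 for *Got2* over *Got1*, −0.11 to 0.48 for *Gpt2* over *Gpt*, −1.01 to 0.0675 for *Me2* over *Me1*, −0.42 to 0.18 for *Pdk1* over *Pdk2*, −0.19 to 0.0686 for *Pdha1* over *Pdhb* and −0.61 to 0.0747 for *Pdp1* over *Pdp2*.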
